A study of Homo sapiens with 18 samples.

Results

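The genes described here are the C2H2 zinc finger transcription factors that changed in Cal51 cells given fenofibrate and ezetimibe together, with the Kruppel-like factors left out. They are the rows of the authors' deposited combination table that carry the transcription factor family zf-C2H2 and whose symbol does not start with KLF. There are 98 of them among the 3508 genes of that table (103 zf-C2H2 rows in all, less 5 Kruppel-like factors). Cal51 is a human breast cancer cell line. Each of 4 groups used here had 3 libraries after 8 h of treatment: fenofibrate plus ezetimibe (called the combination), ezetimibe (which blocks NPC1L1, a sterol transporter), fenofibrate (a fibrate that activates the nuclear receptor PPARα) and DMSO, the solvent control. The labels give no dose and do not name any allele or transgene in these groups, and the 6 libraries of PKM2 knockout and control cells are not analysed here. Of 12 breast and epithelial markers looked up, ERBB2 and GATA3 are listed in the combination table, so the others could not be checked.

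A C2H2 zinc finger is a short loop held by a zinc ion between a pair of cysteines and a pair of histidines, and proteins with many such fingers in a row read DNA a few bases per finger. The largest group among them in human carries a KRAB box at the amino end, which recruits the corepressor TRIM28 and through it the histone methyltransferase SETDB1, and many of these proteins silence transposable elements. Their genes arose by tandem duplication and lie in clusters, above all on chromosome 19. Other members are regulators of development without a KRAB box, such as the SALL, PRDM, GLIS and Ikaros proteins.

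Promoters are shown first for a few of the members, chosen after their values were seen. The first 6 belong to genes that were lower with the combination, 5 neighbours on chromosome 19 and ZNF107 on chromosome 7, and capitals mark a 12-base word that all 6 share. Each runs from 250 bases before to 50 bases after the RefSeq start (build GRCh38.p14), written 5′ to 3′ on the strand of the gene. They are ZNF66 at chr19:20776054-20776353 (plus strand), ZNF714 at chr19:21081953-21082252 (plus strand), ZNF43 at chr19:21836133-21836432 (minus strand), ZNF724 at chr19:23250345-23250644 (minus strand), ZNF681 at chr19:23758842-23759141 (minus strand) and ZNF107 at chr7:64665883-64666182 (plus strand).
ZNF66: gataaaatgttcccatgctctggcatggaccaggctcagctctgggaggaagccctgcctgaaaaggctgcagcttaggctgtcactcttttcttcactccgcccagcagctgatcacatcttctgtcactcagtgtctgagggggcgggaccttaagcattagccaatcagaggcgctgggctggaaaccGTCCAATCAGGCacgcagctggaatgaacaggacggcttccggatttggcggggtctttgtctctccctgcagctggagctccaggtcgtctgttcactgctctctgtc
ZNF714: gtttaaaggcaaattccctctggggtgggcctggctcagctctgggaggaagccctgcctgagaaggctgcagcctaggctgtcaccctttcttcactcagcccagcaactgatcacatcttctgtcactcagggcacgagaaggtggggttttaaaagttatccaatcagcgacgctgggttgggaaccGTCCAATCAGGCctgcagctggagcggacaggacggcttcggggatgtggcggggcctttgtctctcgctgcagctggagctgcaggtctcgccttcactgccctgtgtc
ZNF43: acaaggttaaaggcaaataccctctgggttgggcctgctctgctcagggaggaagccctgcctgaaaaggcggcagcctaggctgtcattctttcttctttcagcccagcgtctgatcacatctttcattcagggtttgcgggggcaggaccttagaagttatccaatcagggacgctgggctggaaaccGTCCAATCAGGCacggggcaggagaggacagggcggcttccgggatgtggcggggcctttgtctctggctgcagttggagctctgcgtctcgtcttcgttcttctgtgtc
ZNF724: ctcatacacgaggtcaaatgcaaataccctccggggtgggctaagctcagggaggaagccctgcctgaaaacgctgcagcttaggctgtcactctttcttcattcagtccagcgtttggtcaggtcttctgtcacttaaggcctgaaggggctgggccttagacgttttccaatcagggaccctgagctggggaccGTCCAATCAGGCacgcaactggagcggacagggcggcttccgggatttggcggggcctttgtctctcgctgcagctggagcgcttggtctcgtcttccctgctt
ZNF681: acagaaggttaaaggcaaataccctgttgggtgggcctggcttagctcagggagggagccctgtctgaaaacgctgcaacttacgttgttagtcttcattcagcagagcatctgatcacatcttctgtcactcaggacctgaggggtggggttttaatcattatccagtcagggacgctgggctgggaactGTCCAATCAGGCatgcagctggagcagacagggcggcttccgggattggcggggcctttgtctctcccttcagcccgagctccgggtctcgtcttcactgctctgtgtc
ZNF107: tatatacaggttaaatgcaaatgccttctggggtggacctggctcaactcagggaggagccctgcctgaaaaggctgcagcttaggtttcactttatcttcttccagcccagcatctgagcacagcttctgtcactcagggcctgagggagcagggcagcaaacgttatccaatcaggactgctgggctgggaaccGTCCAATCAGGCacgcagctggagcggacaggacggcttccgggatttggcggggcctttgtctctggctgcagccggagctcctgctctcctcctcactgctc

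The promoters of ZNF841 and ZNF699, the members on chromosome 19 with the largest rises among those that averaged 50 or more normalised reads, are shown beside them: ZNF841 at chr19:52095716-52096015 (minus strand) and ZNF699 at chr19:9309789-9310088 (minus strand). Capitals in ZNF841 mark CCGGAAG, a core of ETS factor binding sites, and ZNF699 has neither word. The same site lies, unmarked, on the other strand in 5 of the 6 promoters above, all but that of ZNF714, so it does not separate the sets.
ZNF841: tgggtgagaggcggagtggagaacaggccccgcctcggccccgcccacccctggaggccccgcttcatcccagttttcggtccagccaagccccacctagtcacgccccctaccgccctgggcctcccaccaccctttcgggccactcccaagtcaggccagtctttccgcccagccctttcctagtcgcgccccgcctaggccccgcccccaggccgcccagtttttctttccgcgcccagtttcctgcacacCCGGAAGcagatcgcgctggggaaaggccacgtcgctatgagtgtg
ZNF699: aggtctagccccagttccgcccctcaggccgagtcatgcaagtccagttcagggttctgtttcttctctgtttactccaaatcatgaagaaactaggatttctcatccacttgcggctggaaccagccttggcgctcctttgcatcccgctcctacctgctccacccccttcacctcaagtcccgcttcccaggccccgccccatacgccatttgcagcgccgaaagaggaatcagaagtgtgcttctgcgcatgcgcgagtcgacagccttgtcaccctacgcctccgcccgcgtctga

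Values are the authors' normalised reads (reads divided by a factor per library), and the change is the log2 fold change ± SE from limma on log2(value + 1), with Benjamini-Hochberg adjustment over the table. The table lists only genes the authors had called on these same libraries, past a 2-fold change in either direction and an adjusted p of 0.05, so a limma call is not independent of the listing, and a gene outside it is written as not listed. Libraries held 2550718 to 3265200 reads in the listed genes, and their total depth is unknown. Nothing in the labels says that the 3 libraries of a group came from separate cultures, so p-values may measure technical spread alone. In bulk RNA, fewer cells of a kind and less RNA per cell cannot be told apart.

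The zinc finger genes were mostly higher with the combination. Of the 98 members 76 rose and 22 fell (77.6% and 22.4%), and 100% of the table was called by the same test and by edgeR on whole reads (99.9% by DESeq2), 58.7% of it as higher and 41.3% as lower. Among the table's other 2643 protein-coding genes, 53.5% were higher, and among the 179 genes of other transcription factor families 96 were higher and 83 lower. The rises were modest in size. The 76 had a median log2 fold change of 1.39, against 1.77 over the 2058 higher genes of the table, whereas the 22 had a median of -1.43, against -1.44 over the 1450 lower genes. In 97 of the 98 members the 3 combination libraries did not overlap the 3 DMSO libraries, as in 99.0% of the table. The exception was ZNF320, a KRAB zinc finger gene of chromosome 19, with 46.0, 105 and 105 normalised reads with the combination, against 43.0, 34.9 and 48.0 in DMSO. Its change of 0.92 ± 0.33 had a limma adjusted p of 0.0191, and 0.10 without combination replicate 2, 0.0969 without combination replicate 3 and 0.0635 without DMSO replicate 2.

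**Figure D1:**
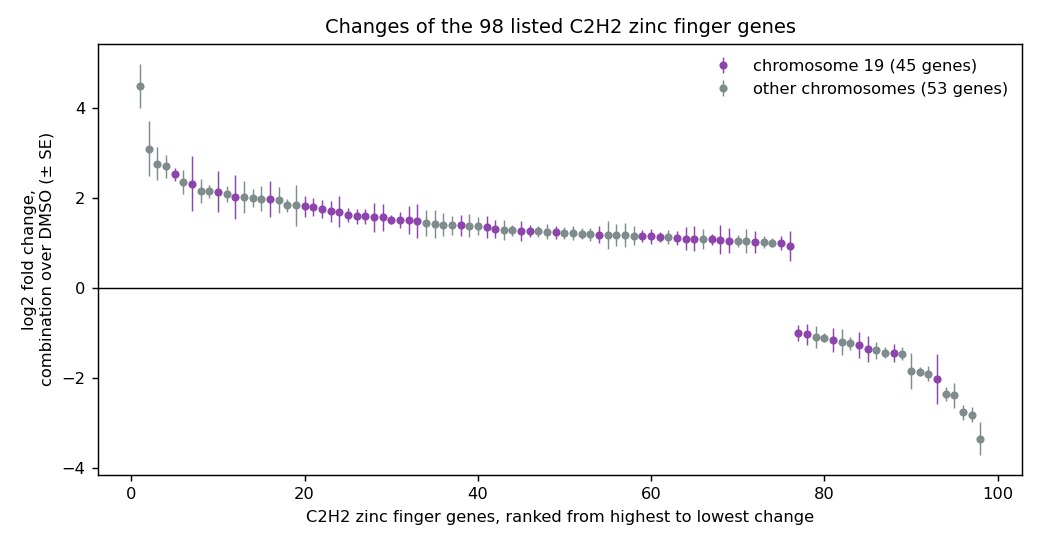
Log2 fold change of the combination over DMSO (points, ± SE from limma) for the 98 members, ranked from highest to lowest, with chromosome 19 genes in purple. The 76 higher members run from 4.49 down to 0.92, most of them in a shallow slope, and the 22 lower members drop to -3.34.

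The members that rose and those that fell differed in level. Per kb of gene length, the 76 higher members had a median of 32.3 normalised reads per kb with the combination and 12.8 in DMSO. The 22 lower members had a median of 15.2 with the combination and 46.6 in DMSO. Over all 98 the median was 24.8 per kb with the combination and 16.3 in DMSO, against 50.8 and 48.4 per kb in the other protein-coding genes. Over the whole table, the higher genes had medians of 33.6 per kb with the combination and 8.68 in DMSO, and the lower genes 37.1 per kb with the combination and 108 in DMSO. A mean of at least 50 normalised reads was reached by 81 of the members, 60 of them higher and 21 lower.

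**Figure D2:**
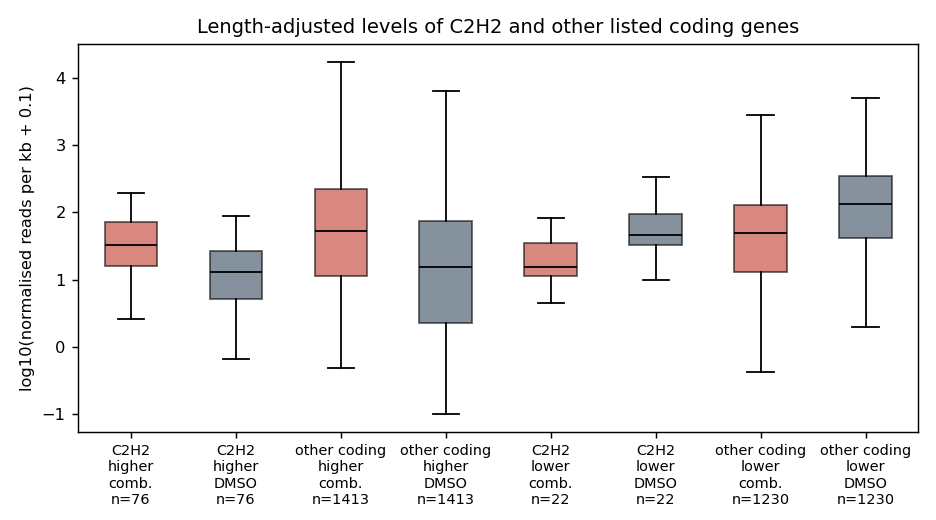
Length-adjusted level (log10 of normalised reads per kb plus 0.1, with boxes for quartiles, a line for the median and whiskers to the last gene within 1.5 times the box) of higher and lower C2H2 members and of the other coding genes of the table, combination left of DMSO. The boxes of the C2H2 genes are narrower than those of the other genes, and their medians lie below them with the combination.

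Among the rises, the genes with a mean of at least 50 that changed most were poorly characterised factors. ZNF391, a zinc finger gene without a recognised KRAB box (chromosome 6, 27374615 to 27403904), had 113, 111 and 93.8 normalised reads with the combination, against 13.7, 13.8 and 19.2 in DMSO. The groups lay far apart, with a 6.81-fold difference and a log2 fold change of 2.70 ± 0.26 (limma adjusted p = 3.27e-06). ZNF841, a KRAB gene with 20 counted fingers (chromosome 19, 52064466 to 52095765), stood at a higher level, with 634, 837 and 818 with the combination, against 138, 123 and 132 in DMSO. All 3 combination libraries were above 4 times the highest DMSO library, and the change was 2.52 ± 0.14 (limma adjusted p = 1.66e-07). ZNF697 on chromosome 1 had 669, 921 and 837 with the combination, against 188, 173 and 181 in DMSO, a change of 2.15 ± 0.14. ZNF70 on chromosome 22 had 502, 612 and 657 with the combination, against 148, 156 and 112 in DMSO (2.09 ± 0.17). In both, the lowest combination library was more than 3 times the highest DMSO library. ZNF239 on chromosome 10 had 507, 393 and 431 with the combination, against 124, 119 and 125 in DMSO (1.84 ± 0.14). The other large rises were ZNF596 at 2.35 ± 0.26, ZNF699 at 2.02 ± 0.49, ZKSCAN7 at 2.00 ± 0.20, ZSCAN12 at 1.95 ± 0.28 and ZNF571 at 1.81 ± 0.22.

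ZNF699 showed the widest spread among these, with 85.5, 361 and 318 normalised reads with the combination, against 51.8, 34.9 and 77.9 in DMSO. Combination replicate 1 lay close to the DMSO libraries, and without it the change was 2.68. That library was low in many members: it was below both other combination libraries in 56 of the 98 members (57.1%) and in 36.7% of the table, and above both in 27 members and in 44.9% of the table. Its part in these counts was not tested.

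Some rises came from a very low start. ZNF648 had 95 reads over the combination libraries and 2 over the DMSO libraries, a ratio of 47.7 with a 95% exact interval of 12.9 to 400 that covers counting error only. PRDM16 had 13.2, 10.2 and 17.2 normalised reads with the combination, against 0, 3.67 and 0 in DMSO. At these levels the size of the fold is poorly fixed, although no library of one group reached the other.

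The falls were fewer. Among members with a mean of at least 50 the deepest fall went further than any rise, and 8 of the 10 largest falls were in genes without a recognised KRAB box. Most of the 10 largest rises had none either: ZNF391, ZNF697, ZNF70, ZKSCAN7, ZSCAN12 and ZNF239. Over all 98 members 45 had none, 31 of them higher and 14 lower. TRERF1, a coactivator known for acting on the steroidogenic gene CYP11A1 (chromosome 6, 42224931 to 42452051), had 23.0, 69.5 and 26.8 normalised reads with the combination, against 285, 389 and 439 in DMSO. It was 9.33-fold lower with the combination, with a log2 fold change of -3.34 ± 0.37 (limma adjusted p = 9.03e-06), the largest fall among the 98. The TRERF1 change was -3.05 without combination replicate 1 and -3.82 without combination replicate 2, the library with 69.5. SALL2, a spalt-like factor (chromosome 14, 21521081 to 21537216), had 60.3, 53.7 and 57.5 with the combination, against 360, 450 and 369 in DMSO. Its libraries were tight, and the change was -2.76 ± 0.16 (limma adjusted p = 2.03e-07). Its relative SALL1, the gene of Townes-Brocks syndrome, had 68.0, 87.1 and 74.7 with the combination, against 203, 177 and 223 in DMSO (-1.38 ± 0.18). SALL1 and SALL2 were the only listed genes, both lower, of 18 on a list of PLAG, INSM, OVOL, OSR and SALL developmental factors.

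MECOM, also known as EVI1, is a PR-domain oncoprotein of leukaemia and the member with the highest level per kb in DMSO. It had 470, 745 and 636 normalised reads with the combination, against 3134, 2847 and 3291 in DMSO (chromosome 3, 169083499 to 169663618). The combination libraries were all far below the DMSO libraries, and the change was -2.35 ± 0.16 (limma adjusted p = 3.74e-07), and -2.16 without combination replicate 1. The other 3 listed PR-domain genes of 14 on that list moved the opposite way. PRDM1, the repressor Blimp-1 of plasma cell differentiation, had 104, 104 and 97.7 with the combination, against 37.1, 34.0 and 43.8 in DMSO (1.40 ± 0.21). PRDM13, a factor of neural subtype choice, had 62.5, 86.2 and 82.4 with the combination, against 18.6, 14.7 and 16.0 in DMSO (2.16 ± 0.26). PRDM16, a determinant of brown fat, rose by 3.09 ± 0.61 from the low start given above.

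ZNF423, which in mouse commits cells to the adipocyte lineage (chromosome 16, 49487524 to 49857919), had 409, 375 and 374 normalised reads with the combination, against 1346, 1468 and 1374 in DMSO. With 27 counted fingers it had the most of any member, and it fell 3.61-fold (-1.85 ± 0.10, limma adjusted p = 1.43e-07). ZNF618 had 262, 435 and 367 with the combination, against 1364, 1299 and 1233 in DMSO (-1.90 ± 0.17, and -1.70 without combination replicate 1). ZNF467 had 18.6, 21.3 and 31.6 with the combination, against 127, 151 and 104 in DMSO (-2.38 ± 0.27). In each of these 3 genes the highest combination library lay well under the lowest DMSO library. GLIS2, a relative of the GLI factors of hedgehog signalling and the only listed gene of 12 on the GLI, GLIS and ZIC list, had 167, 143 and 164 with the combination, against 411, 500 and 394 in DMSO (-1.45 ± 0.15).

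**Figure D3:**
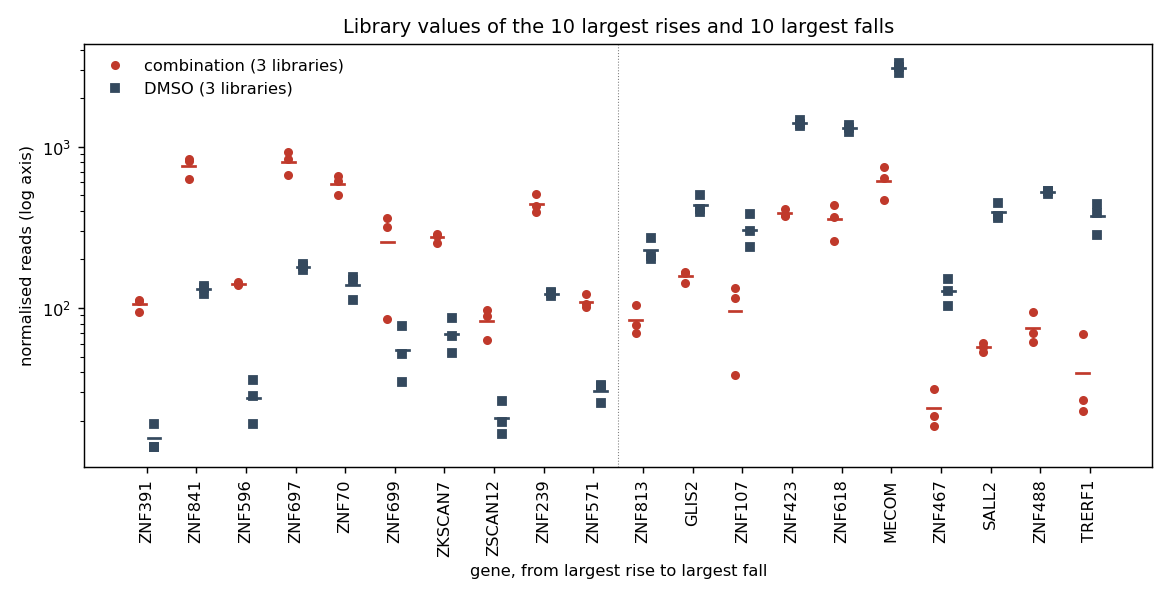
Normalised reads (log axis) in each of 3 combination libraries (red circles) and 3 DMSO libraries (dark squares) for the 10 largest rises and the 10 largest falls among members with means of 50 or more and separate groups, with lines at the means. The groups separate in every gene, and ZNF699 and ZNF107 have 1 combination library far below the other 2.

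Other named lists held few listed genes. Of 7 Ikaros and GFI genes, GFI1, a repressor of blood cell development, rose (24.1, 33.4 and 24.9 normalised reads with the combination, against 3.91, 3.67 and 2.13 in DMSO, 2.76 ± 0.36). IKZF2, which encodes Helios of regulatory T cells, fell (97.5, 233 and 209 with the combination, against 362, 359 and 448 in DMSO, -1.20 ± 0.28, and -0.81 without combination replicate 1). HIVEP3 was the listed gene of 3 HIVEP factors and fell by 1.10 ± 0.10 on the log2 scale. Of 23 general factors such as CTCF, YY1 and REST, 3 were listed. These were TRERF1, ZNF143, which binds many promoters of housekeeping genes (127, 158 and 158 with the combination, against 352, 310 and 378 in DMSO, -1.23 ± 0.15), and YY2, a retroposed copy of YY1, which rose by 1.05 ± 0.26. A list of 7 genes with EGR1 to EGR4 held 1 listed gene, ZNF165 (1.99 ± 0.27), while none of EGR1 to EGR4 was listed. ZNF165 is not an EGR gene, and its rise is not read here as an immediate early response. None of 9 SP genes and none of 7 SNAIL, ZEB and SCRATCH genes was listed. Of 27 SCAN zinc finger genes named ZSCAN or ZKSCAN 4 were listed, all higher, and 3 of them are members: ZKSCAN7, ZSCAN12 and ZSCAN18 (1.16 ± 0.13). SCAN genes with other names are not on that list, so members among them are not counted. The BTB zinc finger genes, which the authors' table files mostly under a family of their own, were evenly split, with 6 higher and 6 lower of 12 listed, a difference from the members that was not tested.

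Chromosome 19 held 45 of the 98 members (45.9%), more than any other chromosome, against 6.05% of the other protein-coding genes of the table. Of 564 coding genes of GENCODE release 29 named ZNF, ZFP, ZSCAN or ZKSCAN, 261 (46.3%) lie there. That set is chosen by name and leaves out members such as MECOM, SALL1 and AC010422.6, so the shares are not like for like. Of those 261, 45 were listed in the combination table (17.2%), and of the 303 on other chromosomes 51 were listed (16.8%), and the rates were close. These listed genes were matched by name and are not the members alone: they take in non-members such as ZSCAN26. Rates for the members alone were not computed. Direction leaned further up on chromosome 19, with 38 higher and 7 lower, against 38 higher and 15 lower members elsewhere. That lean was not seen among members with a recognised KRAB box, with 33 higher and 7 lower there, against 12 higher and 1 lower elsewhere. Among members without one, 5 were higher and 0 lower there, against 26 higher and 14 lower elsewhere. The other 160 listed coding genes of chromosome 19 were 90 higher and 70 lower. None of the differences between members on chromosome 19 and elsewhere was tested.

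Runs of at least 3 members with neighbours within 1 Mb numbered 7 on the chromosome and held 41 of the 45 members. In 4 of the 7 every member was higher (in 7 of 8 with neighbours within 0.5 Mb). The largest, with 11 members from 56375846 to 58481230 near the end of the long arm, had a median log2 fold change of 1.51. Its best measured gene was ZNF274, which binds the ends of other zinc finger genes and brings SETDB1 to them. ZNF274 had 1622, 1564 and 1614 normalised reads with the combination, against 510, 598 and 569 in DMSO (1.52 ± 0.10, limma adjusted p = 4.08e-07). The libraries of each group were nearly equal and the groups were far apart. The next, from 11965037 to 12640098 on the short arm, had 7 members, all higher with a median of 1.39, among them ZNF791 (601, 823 and 797 with the combination, against 286, 314 and 335 in DMSO). Another run, from 43827292 to 45076588, had 5 higher members and a median of 1.5, led by ZNF222 (138, 127 and 149 with the combination, against 40.0, 34.9 and 42.7 in DMSO, 1.79 ± 0.20). The remaining run held ZNF558, ZNF699 and ZNF846. Mixed runs had 5 of 6 members higher (ZFP14 lower, -1.14 ± 0.26), 4 of 5 higher (ZNF813 lower, -1.43 ± 0.20, beside ZNF841) and 1 of 4 higher.

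**Figure D4:**
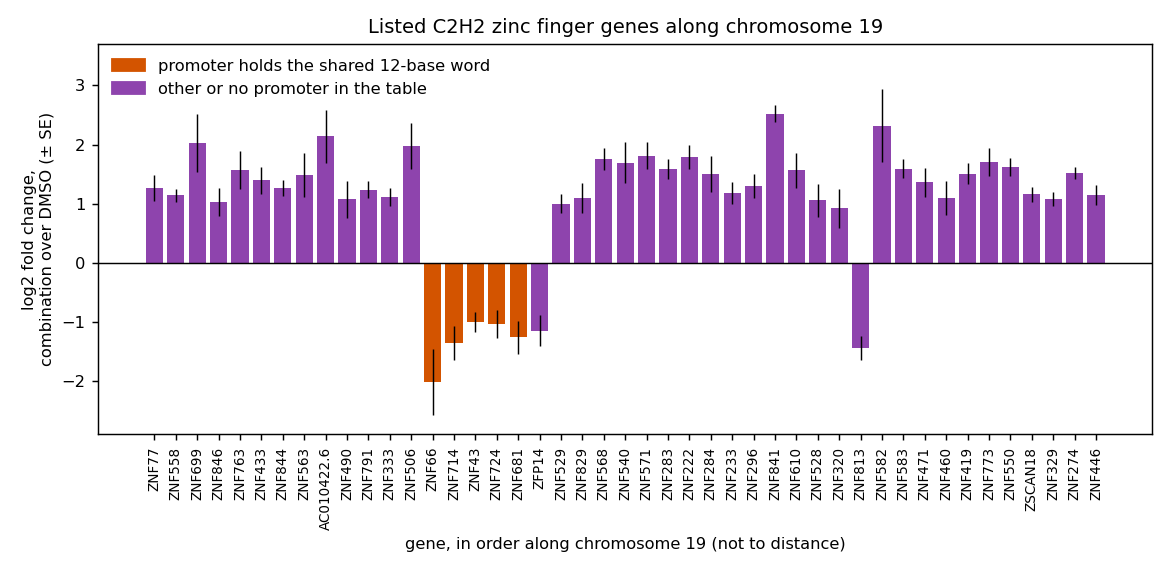
Log2 fold change of the combination over DMSO (bars, ± SE from limma) of the 45 members on chromosome 19 in order of start position, not to distance, with orange for promoters that hold the shared 12-base word. The 5 orange genes form a block of falls (-2.02 to -1.0) after a stretch of rises. The next gene in order, ZFP14, was lower too (-1.14) and is not orange.

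The block that broke the pattern lay towards the centromere. The 5 members from the start of ZNF66 at 20776304 to the end of ZNF681 at 23758891 were all lower, with a median log2 fold change of -1.26. This interval was drawn after the values were seen. All 13 members before it were higher, and of the 27 after it 25 were higher and 2 lower. Those 2 were ZFP14, the next member in order, and ZNF813. ZNF714 had 88.8, 229 and 149 normalised reads with the combination, against 343, 347 and 438 in DMSO (-1.36 ± 0.29). ZNF681 had 47.1, 102 and 90 with the combination, against 189, 155 and 209 in DMSO (-1.26 ± 0.28). ZNF43 had 87.7, 85.2 and 89.1 with the combination, against 192, 151 and 185 in DMSO (-1.0 ± 0.17). In all of these the groups stayed apart, and ZNF724 (-1.03 ± 0.24) and ZNF66 (-2.02 ± 0.56, from a mean of 4.45 with the combination and 19.8 in DMSO) went the same way. Of 26 zinc finger genes that start in this stretch in GENCODE these 5 were listed, and the 3 other listed genes there were lower too. Combination replicate 1 was lowest in 4 of the 5, with a median ratio of 0.491 to the mean of the other combination libraries, against 1.03 over the table. Without it the changes were -1.43 for ZNF66, -1.01 for ZNF714, -0.81 for ZNF724 and -0.93 for ZNF681.

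The lower genes of this block have promoters that resemble each other, as printed above. The word GTCCAATCAGGC, which holds a CCAAT box, starts 54 to 60 bases before the RefSeq start in the 5 genes and in ZNF107 on chromosome 7, another KRAB gene. ZNF107 had 38.4, 133 and 115 normalised reads with the combination, against 299, 238 and 383 in DMSO (-1.83 ± 0.40, and -1.28 without combination replicate 1). Between pairs of the 6 promoters 40.8% to 75.5% of bases matched at the best ungapped shift, against 31.9% to 36.2% between any of them and the ZNF841 or ZNF699 promoter. The word was derived from these 6 genes, so its link to their direction is fixed by the choice. Over both strands, it occurs in 30 of the 27305 promoters of the table (0.110%), 25 of them among the 554 promoters of genes named as zinc fingers, and 6 of the 30 genes are listed. The other holders, such as ZNF91, ZNF208 and ZNF254, are not listed.

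Common promoter motifs were counted in the higher and the lower members. A RefSeq promoter was found for 74 of the 98, 58 higher and 16 lower, and motifs were searched on both strands with any overlap allowed. CCGGAAG was in 46.6% of the higher and 50% of the lower members, against 35.6% of promoters of other zinc finger genes and 10.6% of all promoters. The GC box GGGCGG was in 65.5% of the higher and 68.8% of the lower members, against 62.8% of promoters of other zinc finger genes and 44.5% of all promoters. CCAAT was in 34.5% of the higher and 50% of the lower members, which include the 6 with the shared word, against 46.2% of promoters of other zinc finger genes and 35.7% of all promoters. TGACG, the core of the cAMP response element, was in 39.7% of the higher members and in 3 of the 16 lower members, against 33.3% of other zinc finger promoters and 25% of all. TGATGNAAT, the composite element bound by ATF4 in stressed cells, was in 1 higher and 1 lower member. TGACTCA (AP-1) was in 2 of the 58 higher and 0 of the 16 lower members, against 2.45% of promoters of other zinc finger genes and 4.90% of all. CACGTG (E-box) was in 6 of the 58 higher and 0 of the 16 lower members, against 4.29% of promoters of other zinc finger genes and 7.41% of all. The ZNF143 element was in 4 of the 58 higher and 0 of the 16 lower members, against 12.7% of promoters of other zinc finger genes and 2.08% of all. None of these shares was tested. A match is only a match of letters.

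By protein features, a pattern search of the longest open reading frame of the GENCODE transcripts counted a median of 10 fingers per member, from 2 to 27. Fingers whose cysteines and histidines are spaced otherwise than in the pattern are missed, so the counts can be low. A KRAB-like pattern was found in 53 members, of which 45 rose and 8 fell, against 31 higher and 14 lower among the 45 without it. On chromosome 19 the pattern was in 40 members, 33 higher and 7 lower, and elsewhere in 13, of which 12 were higher and 1, ZNF107, was lower. Divergent KRAB boxes can escape the pattern, AC010422.6 had no coding transcript to search, and the difference in direction was not tested. Overlap of gene models limits some values, since no source used here gives the strand setting of the counting: 69 of the 98 overlap another GENCODE gene, 51 of them a gene on the opposite strand. ZNF540 and ZNF571, and likewise AC010422.6, ZNF490 and ZNF791, share ground with one another and may share reads, as may near-identical paralogues within a run.

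Few members were listed with either drug alone, as were few genes of the whole combination table. Of its 3508 genes, 359 were also listed with ezetimibe and 65 with fenofibrate, and the difference from the members was not tested. The ezetimibe table, with 472 genes of which 99.8% were called by limma (77.5% higher and 22.2% lower), held 2 of the 98, and the fenofibrate table, with 102 genes of which 100% were called (91.2% higher and 8.82% lower), held 1. All comparisons share the DMSO libraries, so the values are given side by side. ZNF488, whose mouse counterpart promotes oligodendrocyte differentiation (chromosome 10, 47365496 to 47384273), had 94.3, 61.2 and 69.9 normalised reads with the combination and 200, 199 and 173 with ezetimibe, against 506, 532 and 529 in DMSO. No libraries of the 3 groups overlapped, and the change was -2.80 ± 0.18 with the combination and -1.46 ± 0.11 with ezetimibe (limma adjusted p = 1.09e-07). PRDM13 had 30.9, 40.2 and 45.6 with ezetimibe, between the values with the combination and in DMSO given above, and changed by 1.18 ± 0.28 with ezetimibe (limma adjusted p = 0.00146). The combination differed from ezetimibe itself in both genes, where 63.2% of the 359 genes listed in both tables were called, 53.2% as higher and 10.0% as lower. The difference was -1.35 ± 0.17 for ZNF488 (limma adjusted p = 9.96e-06) and 0.97 ± 0.24 for PRDM13 (limma adjusted p = 0.00336), after the tables were put on 1 scale through their DMSO libraries.

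ZNF714 was the member listed with fenofibrate. It had 250, 100 and 195 normalised reads with fenofibrate, against 335, 337 and 428 in DMSO on the scale of that table, a change of -1.10 ± 0.30 (limma adjusted p = 0.00618). Without fenofibrate replicate 2 the change was -0.72. On a common scale ZNF714 averaged 156 ± 70.3 with the combination and 186 ± 77.6 with fenofibrate (SD, n = 3 each). The difference of -0.26 ± 0.38 had a 95% interval of -1.11 to 0.58 (limma adjusted p = 0.552, with 78.5% of the 65 shared genes called, 9.23% as lower), so neither an equal level nor a deeper fall with the combination was shown.

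**Figure D5:**
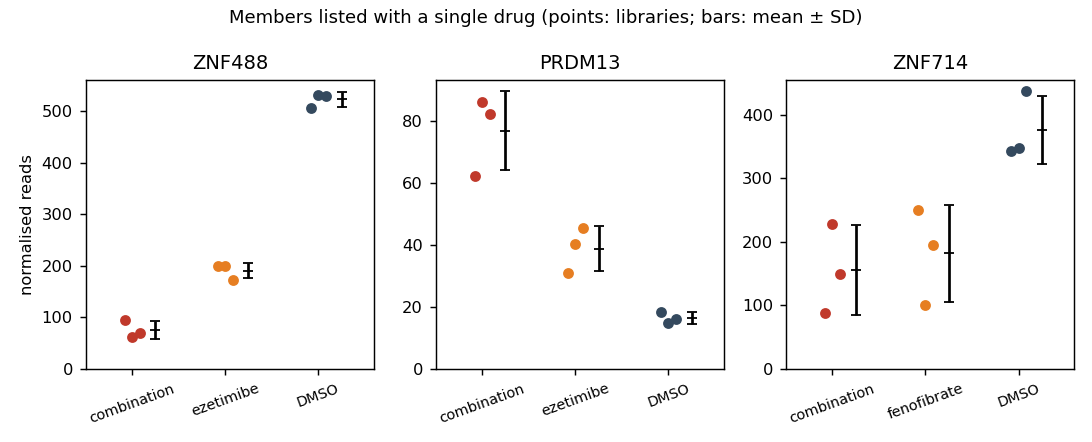
Normalised reads of the 3 members listed with a single drug, in the combination, the single drug and DMSO libraries (points, with mean ± SD beside them, each treatment on the scale of its own table). ZNF488 and PRDM13 with ezetimibe lie between the combination and DMSO, and ZNF714 with fenofibrate overlaps the combination.

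At the listing threshold, the authors' deposited table gave log2 fold changes of -1.01 for ZNF724 and ZNF43 and 1.01 for ZNF529 and ZNF202, and no zinc finger gene short of the threshold is listed. ZNF202, a repressor known for acting on genes of lipid transport, had 859, 854 and 810 normalised reads with the combination, against 404, 405 and 443 in DMSO. Its groups were far apart for a change of this size (1.01 ± 0.11, limma adjusted p = 6.34e-06).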

How the data were processed

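RNA from Cal51 cells was extracted with a SPARKeasy kit and made into libraries with a SMARTER kit, per the labels' protocols. Reads were processed on the build hg38 with featureCounts 1.5.0-p3, HISAT2 2.0.5 and fastp, per the submitters' processing notes, and no source used here names the tool of the comparison. Each of the 3 tables deposited by the authors holds, per the file headers, a signal per gene and library, a log2 fold change and p-values with adjusted p-values. In the combination table the deposited signal was found to be read counts divided by a factor per library (0.912 to 1.09), and 100% of values gave whole reads within 0.01. No column of per-sample values was left unused.

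The combination, ezetimibe and fenofibrate libraries were each fitted against DMSO within their own table with limma 3.58.1 (trend, R 4.3.3) on log2(value + 1), 2-sided, with Benjamini-Hochberg adjustment over every gene listed in it, at 0.05. The added 1 draws changes of low genes towards 0. edgeR 4.0.16 (quasi-likelihood) and DESeq2 1.42.0 on recovered reads were alternatives for the combination table. The fits were tested on simulated data. For the combination against a single drug, tables were scaled by the mean ratio of DMSO values (0.997 for ezetimibe, 1.03 for fenofibrate). Same-numbered libraries showed little shared deviation for the combination (correlations of 0.04, -0.06 and 0.07) and for ezetimibe (0.01, -0.03 and 0.09). For fenofibrate the correlations were 0.24, 0.08 and -0.13. With 3 libraries against 3 no exact permutation test can pass the threshold, so none was used.

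Members and gene lists were chosen with earlier results of these data known. Named genes were the 10 largest rises and falls with means of 50 or more and separate groups, members in a single-drug table, up to 4 members per list, and the 4 largest rises and falls of chromosome 19 with that mean. Others were chosen after their values were seen. All 98 coordinates equal GENCODE release 29. Promoters are from RefSeq (GRCh38.p14), whose starts can differ from the gene starts of the files.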

Additional observations from a re-analysis of the deposited data

How the results depend on the processing

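With the combination against DMSO, the counts of members that rose (76) and fell (22) were the same with a pseudocount of 0.5 or 5, without trend, on reads without the library factors, with edgeR on whole reads (100% of the table called) and with DESeq2 (99.9%). Every member had already been called by the authors on these same libraries, so unchanged counts are not independent of the listing. The DESeq2 changes lay close to the deposited ones (2.54 in both for ZNF841). With only genes of a mean of at least 20 there were 68 higher and 21 lower among 89 members tested. Leaving out each library in turn gave 75 to 76 higher and 22 lower, and no member changed sign. With the replicate number as a replicate block there were 76 higher and 22 lower, and the block changed no call. The 1 result whose direction turned was ZNF714 in the combination against fenofibrate, never called, which ran from -0.640 to 0.0862 over the libraries left out (0.0862 without combination replicate 1 and 0.0140 without fenofibrate replicate 1); the cause was not tested. Chromosome 19 runs numbered 8 with 33 members within 0.5 Mb, and 7 of the 8 held only higher members, against 4 of 7 within 1 Mb. Within 2 Mb there were 7 runs with 43 members, 4 of them all higher. Count tests and reads without library factors were not run for the ezetimibe and fenofibrate tables. Depth limits the size of change that can be given for members with few reads, such as ZNF648 and ZNF66.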
